A study of Mus musculus with 6 samples.

Results

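Monocyte nuclei were followed in the single-nucleus RNA profiles of 6 male DIAMOND mouse livers, in which each nucleus carries a count of unique molecular identifiers (UMIs, 1 per captured transcript molecule) for every gene. A barcode was taken as a monocyte nucleus when it had more than 200 and fewer than 5000 genes, under 5% mitochondrial UMIs, a UMI of at least 2 of the 9 genes Ccr2, Ly6c2, Chil3, F13a1, Vcan, Plac8, Ace, Treml4 and Gpr141, and at least 1 UMI of Ptprc, the leukocyte antigen CD45. It also had to have 0 UMIs of 6 genes of Kupffer cells, dendritic cells, Trem2/Gpnmb macrophages and neutrophils (Clec4f, Flt3, Trem2, Gpnmb, S100a8 and Siglech), and at most 1 UMI in sum of 5 genes of endothelial, lymphoid and stellate cells (Stab2, Ptprb, Skap1, Ebf1 and Reln). The rule took 531 of 41882 barcodes. Of these barcodes 39012 nuclei were kept by the limits on genes and mitochondrial UMIs, and 9579 of them had a Ptprc UMI. Since the rule read these counts, its 21 genes are described below and were not tested.

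DIAMOND mice, labelled as a cross of 129A1/SvIm and C57BL/6J mice, develop steatohepatitis and liver tumors on a Western diet with sugar water. All 6 mice were male and started their diet at 2 months of age. The Ctrl group (2 mice) ate chow for 40 weeks. The Pre-T group (2 mice) had 40 weeks of Western diet, and the Post-T group (2 mice) had 48 weeks of it and was taken after tumor formation. For Post-T the sample titles name tumor and the source field names liver, so the part of the liver is not settled. Groups were caged apart, and diet, cage and, for Post-T, time on diet cannot be told apart.

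Monocytes are made in the bone marrow and circulate in at least a pair of states. Classical monocytes carry the chemokine receptor CCR2 and Ly6C, leave the marrow and enter inflamed tissue, where they can become macrophages. Nonclassical monocytes, which arise from classical ones under the nuclear receptor NR4A1, lose CCR2 and Ly6C, carry CX3CR1, the integrin LFA-1 (its alpha chain is Itgal) and TREML4, and patrol the wall of vessels. In a steatotic liver, incoming monocytes are known to feed both a pool of lipid-handling macrophages marked by Trem2 and Gpnmb and the niche of the resident Kupffer cells.

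The 6 libraries gave 20 and 31 monocyte nuclei in the Ctrl mice, 221 and 140 in the Pre-T mice, and 73 and 46 in the Post-T mice, with 49421 and 51131, 600080 and 368916, and 207512 and 124184 UMIs in sum in the same order. The median per nucleus ran from 1465 UMIs in Ctrl 2 to 2306 in Post-T 2. So the Ctrl mice carry far fewer monocyte UMIs than the Western-diet mice, and a transcript at 3 UMIs in a mouse stands at 60.7 and 58.7 CPM (counts per 1000000 UMIs summed over a mouse's nuclei) in the Ctrl mice but at 8.13 CPM in Pre-T 2. No monocyte nucleus shared its barcode sequence with another one, and 7 had a barcode that was also found in another library. No doublet caller was run.

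Transcripts on marker lists of other cell types were found in many monocyte nuclei. At least 1 UMI of 33 listed markers of T, B and NK cells, dendritic cells, neutrophils and Kupffer cells was present in 322 of the 531 members (60.6%), most often of Csf3r, the G-CSF receptor, in 171 nuclei, Cd5l, a secreted Kupffer cell protein, in 97, the B cell adaptor Bank1 in 90 and the Kupffer cell receptor Vsig4 in 34. Csf3r, a neutrophil marker here, is also among the network signals listed below for monocytes, so its UMIs need not come from another cell. The settings below that leave out these 322 members may therefore also leave out ordinary monocyte nuclei. In sum the 9 monocyte markers of the rule came to 1385 to 3168 CPM per mouse, against which the lists of other cells can be read. The erythroid list was highest in Pre-T 2 and Post-T 1 (702 and 1320 CPM, against 48.3 to 188 in the others). The 4 NK cell markers summed to 0, 0, 0, 10.8, 0 and 8.05 CPM in the order Ctrl, Pre-T and Post-T, and the 6 dendritic cell markers to 0 to 121 CPM, the highest in Ctrl 1, with Flt3 at 0 by the rule and Ccr7 at 0 in every mouse. Of the 5 B cell markers Pax5 was at 0 in every mouse, Bank1 was the only one detected in Ctrl 2 and Post-T 2, and the sum was 127 to 370 CPM. The 5 neutrophil markers summed to 136 to 235 CPM, where Csf3r was the only one detected in Ctrl 1, Ctrl 2 and Post-T 1. The endothelial list summed to 145 to 465 CPM, the stellate list to 24.2 to 252, the cholangiocyte list to 0 to 75.9 and the lipid-associated macrophage list, with Trem2 and Gpnmb at 0 by the rule, to 19.6 to 122. The 8 hepatocyte markers, such as Alb and Apoa1, summed to 12768 and 9251 CPM in the Ctrl mice, 4299 and 13003 in the Pre-T mice, and 5667 and 13110 in the Post-T mice, so hepatocyte RNA was present in every library and differed within groups.

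The first measure was the share of monocyte nuclei among kept nuclei, which does not count the monocytes of the liver. It was 0.277% and 0.399% in the Ctrl mice, 4.09% and 1.78% in the Pre-T mice, and 1.34% and 0.864% in the Post-T mice. All 4 Western-diet mice were above both Ctrl mice, and both Pre-T mice were above both Post-T mice. The mean was 0.338% ± 0.0865 (SD, n = 2) for Ctrl, 2.94% ± 1.63 for Pre-T and 1.10% ± 0.339 for Post-T. The Pre-T mice were apart from each other beyond counting error, with 95% exact binomial intervals of 3.58 to 4.65% and 1.503 to 2.10%. The Western-diet mice were 1.68 percentage points above Ctrl (exact two-sided permutation test over mice, p = 0.2, adjusted p = 0.444 over 12 share tests, of which 4 on types within the members read genes of the rule and are not used), where 4 against 2 mice can give no p below 0.0667 and 2 against 2 none below 0.333.

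The share was also read among nuclei with a Ptprc UMI, to lessen the part of hepatocyte nuclei. Free RNA was not removed, so 1 Ptprc UMI does not exclude a hepatocyte nucleus. These shares were 1.85% and 2.86% in the Ctrl mice, 10.6% and 4.52% in the Pre-T mice, and 4.96% and 6.13% in the Post-T mice. Again every Western-diet mouse was above both Ctrl mice, by 4.18 points on average (exact permutation p = 0.133, adjusted p = 0.444). The Pre-T and Post-T mice overlapped, with a difference of -1.99 points (exact permutation p = 1). Depth bore on the counts. When every nucleus was thinned to 500 UMIs before the rule, the shares of kept nuclei were 0.0691% and 0.219%, 1.29% and 0.484%, and 0.294% and 0.113%. Post-T 2 then fell between the Ctrl mice. The thinned shares of Ptprc nuclei were 1.11% and 3.01%, 5.45% and 2.16%, and 1.97% and 1.69%, so Ctrl 2 was above Pre-T 2 and both Post-T mice, and Post-T minus Ctrl was -0.237 points. Without the 322 members that had a marker of another class, the shares of kept nuclei were 0.0691% and 0.232%, 1.63% and 0.561%, and 0.571% and 0.432%. The Western-diet mice were then still above both Ctrl mice, but Pre-T 2 was below Post-T 1. Of Ptprc nuclei these members made up 0.463% and 1.66%, 4.20% and 1.42%, and 2.11% and 3.06%, where Ctrl 2 was above Pre-T 2. A share of nuclei is relative to the other nuclei recovered.

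**Figure D1:**
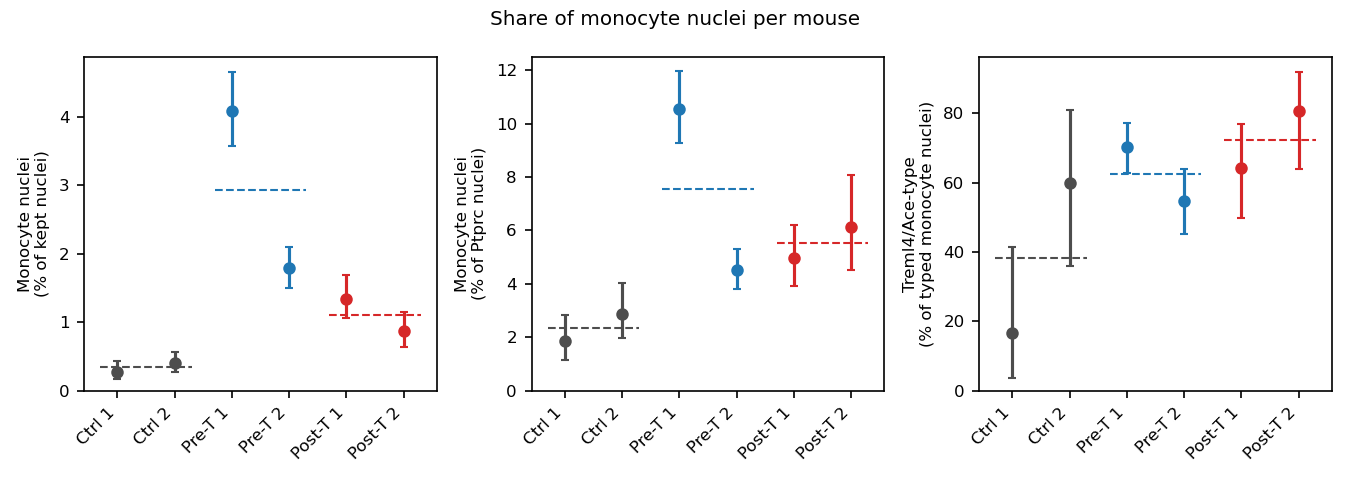
Monocyte nuclei as a percentage of kept nuclei (left) and of nuclei with a Ptprc UMI (middle), and Treml4/Ace-type nuclei as a percentage of typed monocyte nuclei (right), per mouse; bars on points are 95% exact binomial intervals and dashed lines are group means of 2 mice. All 4 Western-diet mice lie above both Ctrl mice in the first 2 panels, while Ctrl 1 alone stands apart in the third at 16.7%.

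The genes that chose the nuclei describe the members of each mouse. Every member had to carry at least 2 of the 9, so a lower level of 1 marker among members favors a higher level of others. Gpr141, an orphan G protein-coupled receptor of myeloid cells, was detected in 377 of the 531 nuclei, Plac8 in 259, Ace, the angiotensin-converting enzyme, in 224, Treml4, a receptor of nonclassical monocytes, in 203 and Ccr2 in 200. F13a1, the coagulation factor XIII A chain, was detected in 91 and Vcan, the proteoglycan versican, in 62, whereas Chil3 and Ly6c2, genes of inflammatory classical monocytes, were found in 34 and 26. Against these shares, in kept nuclei without Ptprc the gene found most often was Plac8 at 4.51%, and the other 8 were found in 0.231 to 1.06% of nuclei. Most members sat at the limit of the rule: 277 had exactly 2 of the 9 markers, 145 had 3, 72 had 4, 26 had 5, 8 had 6 and 3 had 7. The commonest pairs were Plac8 with Gpr141 in 182 nuclei, Ace with Gpr141 in 155 and Treml4 with Gpr141 in 128.

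Ccr2 stood at 931 and 606 CPM in the Ctrl mice, 543 and 431 in the Pre-T mice, and 222 and 121 in the Post-T mice. Its level was lowest in the Post-T mice, and in thinned nuclei it was found in 35% and 29.0%, 16.7% and 22.1%, and 8.22% and 13.04% of members. Treml4 was lowest in the Ctrl mice, at 20.2 and 78.2 CPM there, 232 and 173 in the Pre-T mice, and 178 and 153 in the Post-T mice, although the Ctrl values rest on 1 and 4 UMIs. Opposite trends of Ccr2 and Treml4 are partly set by the rule and were not tested. Ly6c2 and Chil3 had 0 UMIs in both Ctrl mice, which allows up to 60.7 and 58.7 CPM each, above their levels in every Western-diet mouse but for Chil3 in Post-T 1. Within Post-T the mice were unlike each other. Vcan was at 540 CPM in Post-T 1 and at 0 in Post-T 2, F13a1 at 631 and 24.2 CPM, and Chil3 at 116 and 16.1 CPM, so the classical genes of this group come mostly from 1 mouse.

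**Figure D2:**
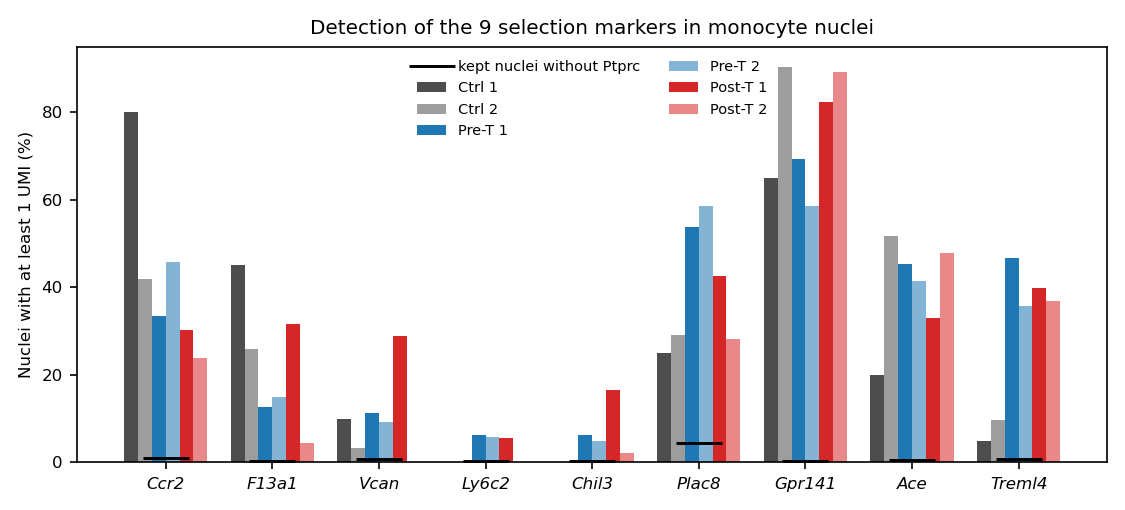
Percentage of monocyte nuclei of each mouse with at least 1 UMI of each of the 9 marker genes of the rule (bars), with the percentage in kept nuclei without a Ptprc UMI, all mice together, as black dashes; nuclei are at their full depth. Ccr2 was found in 80.0% of nuclei in Ctrl 1 and in 23.9% in Post-T 2, and Vcan in 28.8% in Post-T 1 and in 11.3% or less in each of the other mice.

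Genes of the myeloid program that the rule did not read give a check on the label, which the rule's threshold can be read against. Csf1r, the receptor of the monocyte and macrophage growth factor M-CSF, was at 105 CPM in the 3110 nuclei that met every other condition with 0 markers, 274 CPM in the 748 with 1, 454 CPM in the 277 with 2 and 460 CPM in the 254 with 3 or more. Cybb, the catalytic subunit of the phagocyte oxidase, stood at 169, 365, 788 and 979 CPM in the same order, and Cx3cr1 at 32.3, 108, 246 and 288 CPM. Lyn, a Src-family kinase, was found in 93.5% of nuclei at exactly 2 markers and in 98.0% of those with more. So nuclei just inside the threshold were near those well inside it for Csf1r and Lyn, and nuclei with 1 marker lay between.

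Classical and nonclassical states were then set apart within the members. Nuclei with a UMI of Treml4 or Ace and none of Ccr2, Ly6c2 or Chil3 were called Treml4/Ace-type (261 nuclei), the reverse Ccr2-type (153), and 66 nuclei with both and 51 with neither stayed untyped. The Treml4/Ace-type made up 16.7% and 60% of typed nuclei in the Ctrl mice (3 of 18 and 12 of 20), 70.2% and 54.6% in the Pre-T mice, and 64.2% and 80.6% in the Post-T mice. Ctrl 1 was the only mouse with a Ccr2-type majority, and Ctrl 2 lay within the range of the Western-diet mice. Without members with a marker of another class the shares were 40% and 84.6%, 78.1% and 63.4%, and 73.9% and 84.2%, with Ctrl 2 then the highest, and in thinned nuclei Post-T 2 (3 of 4) was the only mouse with a Treml4/Ace-type majority. These shares read genes of the rule and are given as a description.

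The 2 types differed widely outside the genes that define them. In the 3 mice with at least 10 nuclei of each (Pre-T 1, Pre-T 2 and Post-T 1), 346 of 13058 genes were higher and 230 lower in the Treml4/Ace-type at an adjusted p under 0.05 (edgeR with the mouse as a block), 4.41% of genes in all, 2.65% higher and 1.76% lower. Of 18 listed nonclassical monocyte genes outside the rule 15 were higher and none lower, with a median log2 difference of 2.09 against -0.04 over all genes. The calls leaned on Pre-T 1, without which 164 genes passed, against 353 without Pre-T 2, and DESeq2 called 166. The types were split by transcripts of the same nuclei, so a gene that varies with Treml4, Ace or Ccr2 had to follow.

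Nr4a1, the nuclear receptor on which nonclassical monocytes depend, stood at 446 against 64.6 CPM in Pre-T 1, 400.5 against 102 in Pre-T 2 and 493 against 28.4 in Post-T 1, Treml4/Ace-type against Ccr2-type. In all 3 mice the first type was several times higher, a log2 difference of 2.75 ± 0.31 (SE), adjusted p = 9.8e-16. Other listed transcription factors went the same way, with Pou2f2 at 2.12 ± 0.20, Cebpb, a C/EBP factor that nonclassical monocytes need, at 1.81 ± 0.26, Klf2 at 2.06 ± 0.41, Klf4 at 1.83 ± 0.46 and Tcf7l2 at 1.62 ± 0.22, and 9 of 27 such factors were higher. Maf, a factor of mature macrophages, was the only one lower, at -1.28 ± 0.37. Pparg, the lipid-sensing nuclear receptor, reached 691 against 199.7 CPM in Pre-T 1, 507 against 108 in Pre-T 2 and 1012 against 142 in Post-T 1.

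Surface and signalling genes of the nonclassical state were the most unequal. Cd300e, an activating receptor, was at 295 against 17.6 CPM in Pre-T 1, 219 against 6.37 in Pre-T 2 and 228 against 0 in Post-T 1, which is 4.69 ± 0.51 on the log2 scale (adjusted p = 2.63e-17). Dusp16, a phosphatase of the JNK pathway, reached 1948 against 170.3 CPM in Pre-T 1, 1270.3 against 210.2 in Pre-T 2 and 1708 against 42.6 in Post-T 1, with no overlap between the types (3.52 ± 0.23 (SE), adjusted p = 1.17e-50). Itgal stood at 1091 against 229 CPM in Pre-T 1, 889 against 248 in Pre-T 2 and 911 against 270.0 in Post-T 1 (2.10 ± 0.22 (SE), adjusted p = 1e-17), and Spn, the sialophorin CD43, at 382 against 94 CPM in Pre-T 1, 394 against 44.6 in Pre-T 2 and 164 against 71 in Post-T 1 (2.38 ± 0.34 (SE), adjusted p = 3.2e-10). The sodium, potassium and chloride transporter Slc12a2 (3.39 ± 0.41), the adhesion receptors Adgre4 (1.93 ± 0.18) and Ceacam1 (1.83 ± 0.32) and the fractalkine receptor Cx3cr1 (1.22 ± 0.28) were higher as well, while Cd36, Fabp4 and Itgax, the other 3 of the list, did not pass.

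The adhesion genes divided by state, 7 of 18 higher and 3 lower. Pecam1, the platelet and endothelial adhesion molecule CD31, stood at 785 against 64.6 CPM in Pre-T 1, 601 against 51 in Pre-T 2 and 1404 against 56.8 in Post-T 1 (3.94 ± 0.29 (SE), adjusted p = 6.41e-39). S1pr5, a sphingosine phosphate receptor needed for egress of patrolling monocytes, had 46 UMIs against 2, a ratio of 17.7 (95% counting interval 4.63 to 151). On the Ccr2 side lay the chemokine receptor Ccr1, with 1 against 16 UMIs and a ratio of 0.0481 (95% counting interval 0.00115 to 0.31), a call that was lost when any of the 3 mice was left out. Fn1, fibronectin, a secreted classical monocyte product, was at 169 against 851 CPM in Pre-T 1, 206 against 643 in Pre-T 2 and 304 against 1407 in Post-T 1 (-1.95 ± 0.23 (SE), adjusted p = 5.82e-15). Other listed classical genes did not follow the split: 2 of 16 were lower, Fn1 among them, and Clec4e, an innate lectin receptor, was higher (2.16 ± 0.40).

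Of 16 inflammatory cytokines and chemokines, Il1b and Tnf were higher in the Treml4/Ace-type and none was lower, 8 lay above 0, and the list median was -0.12 against -0.04 over all genes. Il1b, which encodes IL-1β, stood at 432 against 82.2 CPM in Pre-T 1, 225 against 63.7 in Pre-T 2 and 354 against 0 in Post-T 1, a log2 difference of 2.65 ± 0.34 (SE), adjusted p = 4.53e-12, but it did not pass in nuclei thinned to 500 UMIs. Tnf had 37 UMIs against 7 (2.14 ± 0.61 (SE), adjusted p = 0.0145). Cd274, which encodes the checkpoint ligand PD-L1, was at 392 against 41.1 CPM in Pre-T 1, 238 against 57.3 in Pre-T 2 and 215 against 14.2 in Post-T 1 (2.92 ± 0.38 (SE), adjusted p = 3.49e-12), Pdcd1lg2, which encodes PD-L2, at 151 against 5.87 CPM in Pre-T 1, 131 against 6.37 in Pre-T 2 and 63.3 against 0 in Post-T 1, and the activating Fc receptor Fcgr4 at 212 against 35.2 CPM in Pre-T 1, 181 against 63.7 in Pre-T 2 and 215 against 56.8 in Post-T 1. The Ccr2-type held more transcript of the class II factor Ciita (-2.47 ± 0.40), of H2-Ab1 (-1.18 ± 0.33), H2-Aa, H2-Eb1 and Cd74, 5 of 15 genes of antigen presentation, though only Ciita of these passed with DESeq2, and in Post-T 1 neither Ciita (25.3 against 14.2 CPM) nor H2-Ab1 (12.7 against 14.2 CPM) was clearly higher in it. The class I gene H2-D1 and Cd83 were higher in the Treml4/Ace-type. The lysozyme transcript Lyz2, at 756 against 1773 CPM in Pre-T 1, 751 against 1140.4 in Pre-T 2 and 164 against 455 in Post-T 1, was lower in the Treml4/Ace-type (-0.89 ± 0.20 (SE), adjusted p = 0.000585).

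Of the genes with a mean of at least 50 CPM, Ms4a8a, Knl1 and Slc22a3 were the lowest in the Treml4/Ace-type by fold, and Top2a and Mki67 were among the 10 lowest. Top2a, a topoisomerase of dividing cells, was at 3.6 against 252 CPM in Pre-T 1, 25 against 63.7 in Pre-T 2 and 12.7 against 114 in Post-T 1, and Mki67 at 36 against 229 CPM in Pre-T 1, 0 against 12.7 in Pre-T 2 and 0 against 199 in Post-T 1. Knl1, a kinetochore scaffold, followed with 3.6 against 123 CPM in Pre-T 1, 0 against 38.2 in Pre-T 2 and 25.3 against 128 in Post-T 1. The Ccr2-type was higher in all 3 mice for Top2a and Knl1. For Mki67 it was higher in Pre-T 1 and Post-T 1, while Pre-T 2 had only 0 against 2 UMIs. The Top2a and Knl1 calls were lost without Pre-T 1 and, with Mki67, in thinned nuclei. Further genes of this side were Morrbid, a long noncoding RNA of short-lived myeloid cells, at 46.8 against 399 CPM in Pre-T 1, 50.1 against 465 in Pre-T 2 and 25.3 against 512 in Post-T 1 (-3.18 ± 0.33 (SE), adjusted p = 1.36e-18), Ly86, which encodes MD-1, at -2.88 ± 0.41, the growth factor Nrg1 at -2.81 ± 0.43 and Slfn5 at a log2 difference of -3.06. Slc22a3 and Gm33543 had most of their UMIs in Post-T 1, at 327 and 270.0 CPM in its Ccr2-type nuclei, while Ms4a8a, at 3.6 against 117 CPM in Pre-T 1, 0 against 51 in Pre-T 2 and 25.3 against 256 in Post-T 1, was higher there in all 3 mice. On the other side Ccdc192, Fpr1, Ikzf3, Vamp5 and Fndc9 complete the 10 largest with Cd300e, Pdcd1lg2, Pecam1, Dusp16 and Slc12a2. The Ctrl mice were outside this fit and hold 15 Treml4/Ace-type nuclei. Of these 10 genes Dusp16 (1498 and 1966 CPM against 49.7 and 117 in the Ccr2-type) and Cd300e (562 and 169 against 0 and 0 CPM, on 3 UMIs in each mouse) were higher in both Ctrl mice, the others were not, and Fpr1 had no UMI in either type.

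**Figure D3:**
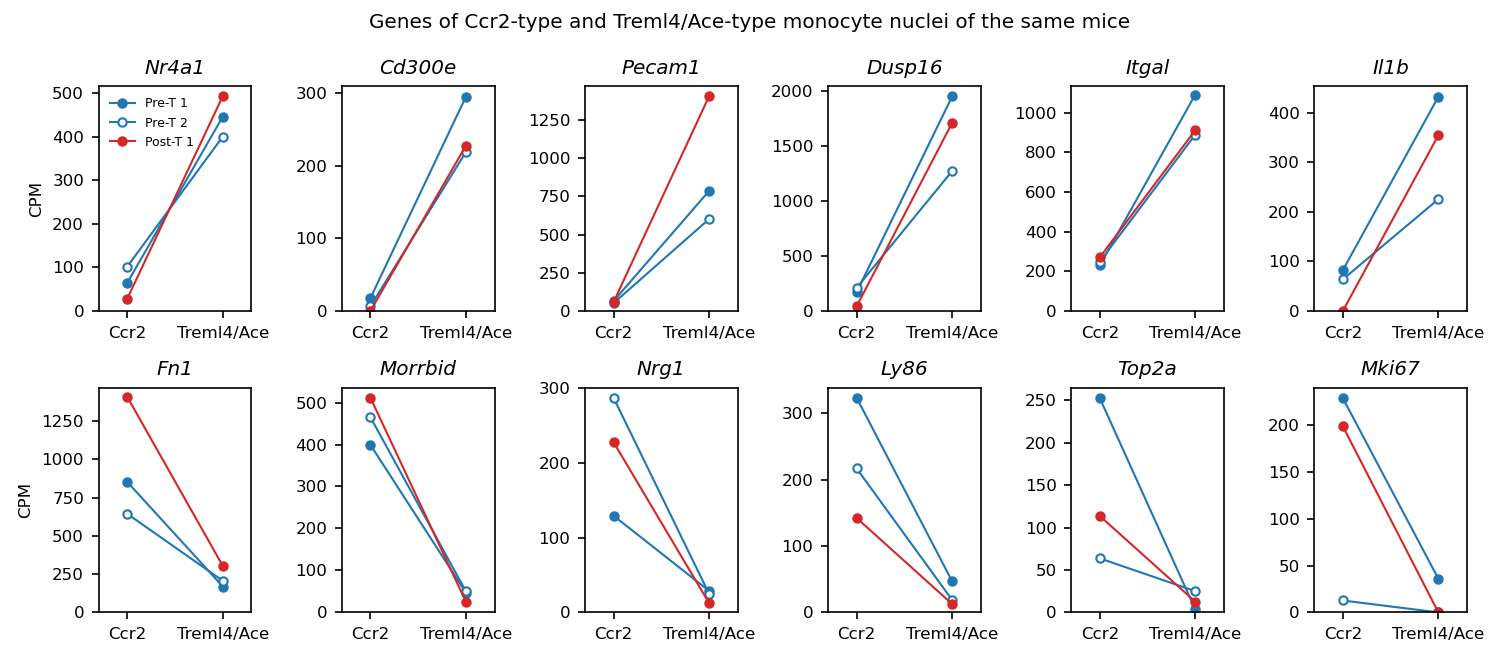
CPM of 12 genes in Ccr2-type (left of each panel) and Treml4/Ace-type (right) monocyte nuclei of the same mouse, joined by lines, in Pre-T 1 (filled blue), Pre-T 2 (open blue) and Post-T 1 (filled red). The lines for Nr4a1, Dusp16 and Pecam1 rise in all 3 mice, and those for Fn1 fall.

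The promoters of 3 genes are shown because they stand for the defining gene of the type (Treml4), a surface gene (Spn) and the transcription factor (Nr4a1) that were read in the comparison. Each is the 250 bases before the annotated start in RefSeq on GRCm38.p6, 5′ to 3′ on the gene's strand, and capitals mark TTCCTC, the reverse complement of the PU.1 core GAGGAA.
Treml4 (chr17:48264045-48264294, plus strand): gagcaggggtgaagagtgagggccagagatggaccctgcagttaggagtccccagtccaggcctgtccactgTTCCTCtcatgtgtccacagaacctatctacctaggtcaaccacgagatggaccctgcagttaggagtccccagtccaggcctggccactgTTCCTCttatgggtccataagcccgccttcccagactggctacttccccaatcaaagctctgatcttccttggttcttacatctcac
Spn (chr7:127137824-127138073, minus strand): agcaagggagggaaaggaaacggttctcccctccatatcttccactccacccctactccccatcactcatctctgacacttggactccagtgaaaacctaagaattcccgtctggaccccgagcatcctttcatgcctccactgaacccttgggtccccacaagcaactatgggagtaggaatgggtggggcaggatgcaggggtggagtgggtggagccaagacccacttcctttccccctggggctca
Nr4a1 (chr15:101266596-101266845, plus strand): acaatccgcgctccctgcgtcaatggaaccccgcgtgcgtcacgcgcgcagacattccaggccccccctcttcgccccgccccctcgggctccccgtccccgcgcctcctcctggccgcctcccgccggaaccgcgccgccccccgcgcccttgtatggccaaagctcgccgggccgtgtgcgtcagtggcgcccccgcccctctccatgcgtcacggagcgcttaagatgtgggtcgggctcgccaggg
The Treml4 window held 2 copies of the core, 178 to 173 and 87 to 82 bases before the start, and the other two held no match to GAGGAA, to the NR4A site AAAGGTCA or to the C/EBP pattern TTGCNNAA on either strand. Over 32851 mouse promoters 23.25%, 1.336% and 9.564% hold at least 1 match to these motifs, and of 17 promoters of 15 listed nonclassical genes 4, 0 and 3 do. These are matches of letters and do not show binding.

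Monocyte nuclei were next compared with the 2 macrophage classes of the same livers, to see which genes set them apart. Kupffer nuclei, chosen by Clec4f and at least 1 of Vsig4, Timd4, Cd5l or Marco, numbered 95 and 76, 116 and 290, and 16 and 10 per mouse. Trem2/Gpnmb macrophage nuclei, without Clec4f, numbered 2 and 1 in the Ctrl mice, which were left out, and 112, 137, 85 and 33 in the Western-diet mice. Against Kupffer nuclei 715 of 16146 genes were higher and 639 lower in monocyte nuclei (8.39% of genes, 4.43% and 3.96% by direction), and against Trem2/Gpnmb nuclei 667 of 15650 were higher and 633 lower (8.31%, 4.26% and 4.04%). Both counts leaned on the deeper mice: without Pre-T 1 they were 818 and 710, and without Pre-T 2 the Kupffer count was 843. The genes of the rules were left out, but the classes were chosen by transcripts of the same nuclei. Genes that vary with those markers, as those of the monocyte, Kupffer cell and lipid lists may, had to follow.

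The monocyte gene lists leaned toward the monocyte nuclei in both comparisons. Of the 18 nonclassical genes 15 were higher than in Kupffer nuclei and none lower (median log2 difference 1.19 against -0.06 over all genes), and 13 were higher and 3 lower than in Trem2/Gpnmb nuclei (1.67 against -0.08). Of the classical genes 11 of 17 and 10 of 16 were higher, with only Thbs1 lower, in the second comparison. Cx3cr1 stood at 80.9 against 11.1 and 391 against 5.4 CPM in the Ctrl mice, 330.0 against 17.5 and 287 against 49.6 in the Pre-T mice, and 139.8 against 12.7 and 153 against 39.4 in the Post-T mice, monocyte against Kupffer. It was above Kupffer nuclei in all 6 mice (3.32 ± 0.32 (SE), adjusted p = 2.33e-22). Nr4a1 reached 202 against 77.4 and 293 against 21.6 CPM in the Ctrl mice, 263 against 13.1 and 244 against 49.6 in the Pre-T mice, and 255 against 50.9 and 338 against 39.4 in the Post-T mice. Its log2 difference was 2.66 ± 0.29 (SE), adjusted p = 8.35e-18, and it exceeded Trem2/Gpnmb nuclei as well (adjusted p = 2.02e-18). Of the classical genes the small calcium-binding proteins S100a4 (4.07 ± 0.52) and S100a6 (3.30 ± 0.46), Ms4a4c (3.11 ± 0.35) and the lectin Clec4e (2.92 ± 0.41) exceeded Kupffer nuclei most.

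Genes of trafficking were among the most unequal. Itga4, the alpha chain of VLA-4 that binds VCAM-1 on endothelium, stood at 931 against 92.1 and 1506 against 157 CPM in the Ctrl mice, 1543 against 234 and 1185 against 263 in the Pre-T mice, and 1036 against 254 and 1199.8 against 158 in the Post-T mice. No monocyte value overlapped a Kupffer value (2.65 ± 0.23 (SE), adjusted p = 4.24e-29). Against the Trem2/Gpnmb nuclei it stood at 1543 against 388 and 1185 against 329 CPM in the Pre-T mice, and 1036 against 154 and 1199.8 against 301 in the Post-T mice (2.17 ± 0.20 (SE), adjusted p = 2.92e-23). Itgam, Itgal, Itgb2, Itgb7, Selplg, Cxcr4 and S1pr5 were also higher than in Kupffer nuclei, 12 of 18 in all and 1 lower. Pecam1 was among the 12 at 0.81 ± 0.25, but in 4 of 6 mice only, both Ctrl mice being lower in monocyte nuclei.

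The largest differences among genes with a mean of at least 50 CPM lay outside the lists. Lsp1, a leukocyte actin-binding protein, was at 283 against 0 and 293 against 5.4 CPM in the Ctrl mice, 212 against 4.37 and 189.8 against 17.6 in the Pre-T mice, and 231 against 0 and 137 against 0 in the Post-T mice, and was nearly absent from Kupffer nuclei (4.52 ± 0.36 (SE), adjusted p = 1.13e-32). Skint3 (4.79 ± 0.42 against Kupffer and 3.63 ± 0.38 against Trem2/Gpnmb nuclei), the transcriptional corepressor Cbfa2t3 (4.50 ± 0.36 and 3.29 ± 0.31), the protease gene Napsa (3.83 ± 0.35 and 3.21 ± 0.32), Ccdc88c (4.18 ± 0.32 and 3.60 ± 0.29) and the adhesion molecule Emb (3.93 ± 0.39 and 3.90 ± 0.40) were higher than in both. Against Kupffer nuclei the Rac exchange factor Tiam1, the lymphatic growth factor Vegfc, Sema4d and Ccdc192 complete the 10 largest, and against Trem2/Gpnmb nuclei the kinase Lrrk2, Rasgrp4, Arhgef37 and Smpdl3b do.

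Macrophage genes ran the other way, a direction that the choice of the classes favors. All 12 Kupffer cell genes that could be tested were lower in monocyte nuclei, among them the complement genes C1qa, C1qb and C1qc (-1.99 to -1.88) and Adgre1, the F4/80 antigen (-1.21 ± 0.22). The iron exporter Slc40a1 stood at 60.7 against 1784 and 274 against 2269 CPM in the Ctrl mice, 60 against 1555 and 108 against 874 in the Pre-T mice, and 125 against 547 and 80.5 against 1499 in the Post-T mice (-3.54 ± 0.24 (SE), adjusted p = 6.4e-44). Mertk, the receptor for dying cells, was at 40.5 against 1128 and 58.7 against 1626 CPM in the Ctrl mice, 173 against 1994 and 219.6 against 1029.7 in the Pre-T mice, and 116 against 1030.3 and 539.5 against 2327 in the Post-T mice, lower in all 6 mice (adjusted p = 1.93e-35). Of 22 genes of lipid handling 11 were lower and Pparg alone higher, and against Trem2/Gpnmb nuclei 17 of 22 were lower and none higher. Lpl, lipoprotein lipase, was at 65 against 840.2 and 127 against 462 CPM in the Pre-T mice, and 62.6 against 139 and 137 against 251 in the Post-T mice (-2.10 ± 0.25 (SE), adjusted p = 3.37e-14), and Lgals3, galectin-3, at 145 against 299 and 130.1 against 234 CPM in the Pre-T mice, and 77.1 against 211 and 96.6 against 974 in the Post-T mice. The lysosomal proton pump subunit Atp6v0d2 (-4.74 ± 0.35), the zinc finger gene St18 (-4.50 ± 0.30), the elastase Mmp12 (-3.94 ± 0.31), Il7r and Pcdh7 were the lowest of genes with a mean of at least 50 CPM. The protein 4.1 relative Epb41l3 had 2 UMIs in monocyte against 354 in Kupffer nuclei, a ratio of 0.00801 (95% counting interval 0.000966 to 0.0291), and the collagen-processing Pcolce2, the metalloprotease Mmp27 and dysferlin, Dysf, followed it.

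Several receptors for cytokines were higher in monocyte nuclei. A list of 26 network signals for monocytes was made here and is not a list given by the study. Of these, 6 were higher and 2 lower than in Kupffer nuclei and 10 higher and 3 lower than in Trem2/Gpnmb nuclei. The TNF receptor Tnfrsf1b (1.63 ± 0.24 and 1.69 ± 0.23), the IL-17 receptor Il17ra (2.08 ± 0.26 and 1.62 ± 0.24), Il6ra, Il10ra and Ifngr1 were higher in both, and the platelet-derived growth factor Pdgfc (-2.53 ± 0.29 and -1.94 ± 0.28) and the anaphylatoxin receptor C3ar1 lower in both. Il1b exceeded Trem2/Gpnmb nuclei (1.77 ± 0.27 (SE), adjusted p = 6.68e-09) and did not pass against Kupffer nuclei (-0.27 ± 0.26 (SE), adjusted p = 0.748), and Il1a was lower than in Kupffer nuclei with 3 UMIs against 113, a ratio of 0.0376 (95% counting interval 0.00765 to 0.113). Against Kupffer nuclei 0 of 23 interferon-stimulated genes were higher and 3 lower, 1 and 1 of 15 antigen presentation genes, 5 and 3 of 16 phagocyte receptors, and 1 and 2 of 13 genes of suppressive monocytes. Against Trem2/Gpnmb nuclei the same lists gave 0 and 0 of 23, 0 and 1 of 15, 4 and 4 of 16, and 2 and 1 of 11. At an unadjusted p under 0.05 the interferon list had 6 and 3 genes. Of the 18 cytokines and chemokines 2 were higher and 4 lower against Kupffer nuclei and 2 and 2 of 17 against Trem2/Gpnmb nuclei.

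**Figure D4:**
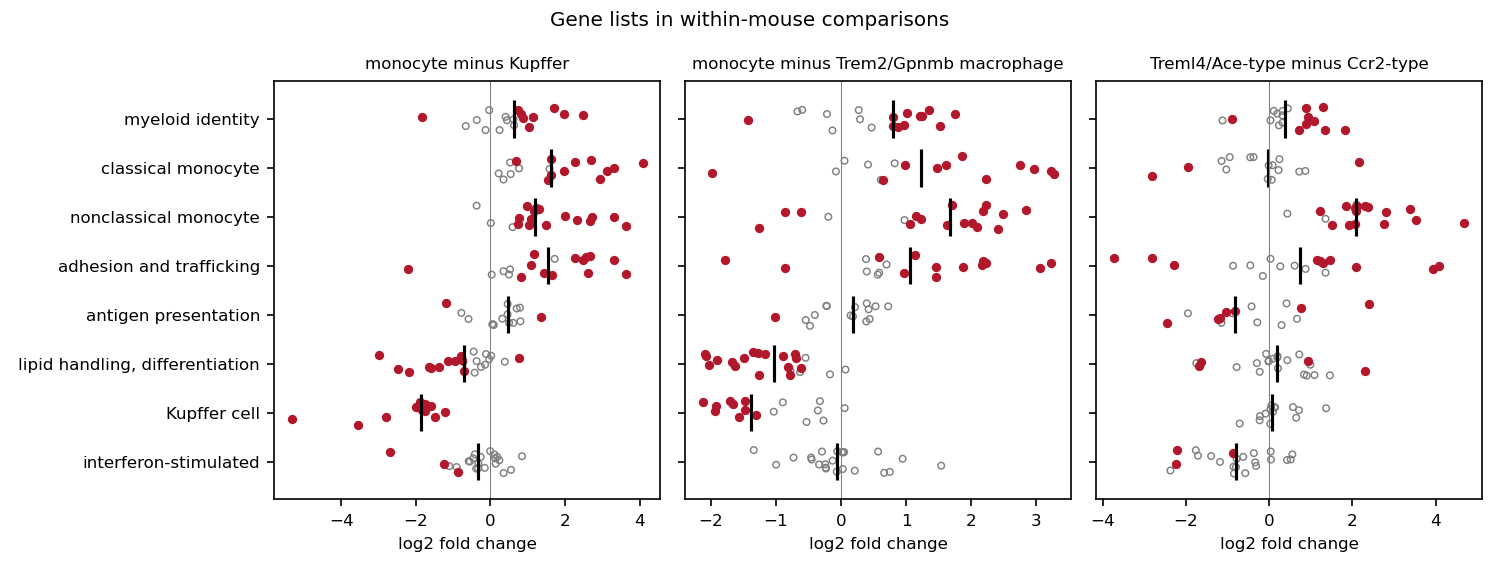
Log2 differences of single genes of 8 lists in 3 comparisons within mice: monocyte minus Kupffer (6 mice), monocyte minus Trem2/Gpnmb macrophage (4 mice) and Treml4/Ace-type minus Ccr2-type (3 mice). Filled red points have an adjusted p under 0.05, open grey points do not, and black bars are list medians; the nonclassical list lies to the right in all 3 and the lipid list to the left in the first 2.

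The comparison of diets asked whether the monocytes themselves changed. In Pre-T against Ctrl 97 genes were higher and 62 lower (1.13% of 14023 genes, 0.692% and 0.442% by direction). In Post-T against Ctrl 104 were higher and 93 lower (1.4%, 0.742% and 0.663%), and in Post-T against Pre-T 79 were higher and 141 lower (1.57%, 0.563% and 1.01%). In the 4 Western-diet mice against Ctrl 84 were higher and 104 lower (1.34%, 0.599% and 0.742%). The median log2 difference over all genes was 0.55, 0.20, -0.25 and 0.46, a shift that changes below are read against. With RLE in place of TMM scaling it was 0.33, 0.04, -0.20 and 0.27, and the splits of higher to lower were 59 to 88, 72 to 116, 91 to 129 and 50 to 131. Of the calls 121, 165, 208 and 154 were kept with RLE, and 127, 169, 198 and 160 with a minimum of 1 UMI in place of 3. Other settings gave fewer. DESeq2 called 3, 50, 27 and 35 genes, thinning the nuclei left 5, 19, 15 and 5, members without a marker of another class gave 0, 0, 1 and 0 by edgeR, with 656, 515, 484 and 566 at an unadjusted p under 0.05, and nuclei with at least 3 markers gave none in any comparison, with 640, 584, 588 and 637 genes at an unadjusted p under 0.05.

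Single libraries moved the counts by more than 1.5 times. Without Ctrl 1 the counts were 51, 80, 288 and 53, without Pre-T 1 they were 46, 143, 86 and 104, and without Pre-T 2 they were 36, 137, 77 and 105. Of the called genes 38 of 159 (23.9%), 47 of 197 (23.9%), 29 of 220 (13.2%) and 46 of 188 (24.5%) had at least 2 times the mean CPM of kept nuclei without Ptprc. The first, second and last shares are near the 21.09% of all genes tested that did. That limit was chosen after seeing the data.

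Pecam1, which had at least 2 times the mean CPM of nuclei without Ptprc, was higher in the Western-diet mice. It had 2 and 0 UMIs in the Ctrl mice, 306 and 136 in the Pre-T mice, and 144 and 57 in the Post-T mice. These are 40.5 and 0 CPM in the Ctrl mice, 509.9 and 369 in the Pre-T mice, and 694 and 459 in the Post-T mice. The gene lies at chr11:106654217-106750628, minus strand (GRCm38). All 4 Western-diet mice were above both Ctrl mice, a pooled ratio of 24.9 (95% counting interval 6.85 to 206) and a log2 difference of 4.94 ± 0.63 (SE), adjusted p = 1.73e-11 by edgeR and 0.00814 by DESeq2. The Pre-T contrast alone gave 4.69 ± 0.66 (SE), adjusted p = 6.42e-09 and 0.119 with DESeq2, and the Post-T contrast 5.19 ± 0.65 (SE), adjusted p = 2.69e-12 and 0.002. The call was lost in nuclei with at least 3 markers and without members that carried markers of another class.

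Since Pecam1 belongs to the Treml4/Ace-type, its level was read within the types. In Treml4/Ace-type nuclei it was at 187 and 0 CPM in the Ctrl mice, 785 and 601 in the Pre-T mice, and 1404 and 548 in the Post-T mice. Ctrl 2 had none in 12 nuclei and 17798 UMIs, which allows up to 169 CPM, below the lowest Western-diet mouse. Ctrl 1 had 1 UMI in 3 nuclei and 5341 UMIs, where 3 UMIs would stand at 562 CPM, above Post-T 2. In the Ccr2-type it was at 24.9 and 0 CPM in the Ctrl mice, 64.6 and 51 in the Pre-T mice, and 56.8 and 116 in the Post-T mice. Nuclei without Ptprc held 52.1 and 44.9 CPM in the Ctrl mice, 44.3 and 91.9 in the Pre-T mice, and 91.5 and 140.2 in the Post-T mice. Kupffer nuclei held 81.1 and 91.8 CPM in the Ctrl mice, 142 and 190.0 in the Pre-T mice, and 458 and 316 in the Post-T mice, where the Western-diet mice were also the higher ones. The endothelial markers summed to 465 and 372 CPM in the monocyte nuclei of the Ctrl mice and 145 to 198 in the others. The share of the Treml4/Ace-type was lowest in Ctrl 1, but in Ctrl 2, at 60%, it lay within the range of the Western-diet mice. The Kupffer cell level was lower in both Ctrl mice. The part of the type share and of the Kupffer cell level was not tested.

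Cd274 followed a like pattern on fewer UMIs. It had 1 and 1 UMIs in the Ctrl mice, 158 and 56 in the Pre-T mice, and 29 and 15 in the Post-T mice. The levels were 20.2 and 19.6 CPM in the Ctrl mice, 263 and 152 in the Pre-T mice, and 139.8 and 121 in the Post-T mice, and the Western-diet and Ctrl mice did not overlap. The ratio was 9.97 (95% counting interval 2.73 to 82.8), with a log2 difference of 3.34 ± 0.72 (SE), adjusted p = 0.000748, against 0.407 with DESeq2. Fcgr4, with 1 and 0 UMIs in the Ctrl mice, 81 and 48 in the Pre-T mice, and 35 and 10 in the Post-T mice, gave a ratio of 13.5 (95% counting interval 2.38 to 534) and 3.96 ± 0.88 (SE), adjusted p = 0.00152. The cholesterol exporter Abcg1 stood at 40.5 and 19.6 CPM in the Ctrl mice, 187 and 133 in the Pre-T mice, and 169 and 209 in the Post-T mice. It gave a ratio of 5.72 (95% counting interval 1.93 to 28) and 2.83 ± 0.65 (SE), adjusted p = 0.00239. None of the 3 passed with DESeq2 or in thinned nuclei, each lost its call when a Ctrl library was left out, and all 3 were low in the Ctrl Kupffer nuclei too, at 44.2 and 43.2, 11.1 and 32.4, and 55.3 and 103 CPM. Abcg1 is also a macrophage gene, and the 5 Kupffer cell markers, with Clec4f at 0 by the rule, summed to 20.2 and 19.6 CPM in the monocyte nuclei of the Ctrl mice and to 67.5 to 320 in the others; Mertk (2.63 ± 0.55 (SE), adjusted p = 0.000502), Ctsd (2.37 ± 0.69 (SE), adjusted p = 0.0431) and Cd5l (2.68 ± 0.79 (SE), adjusted p = 0.0486), called alike, are macrophage genes too, and the part of such RNA was not tested. As with Pecam1, Cd274 and Fcgr4 are transcripts of the Treml4/Ace-type, whose share was lowest in Ctrl 1 and in Ctrl 2 within the Western-diet range.

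Antigen presentation and lysozyme separated Post-T from Pre-T. H2-Ab1, the beta chain of the class II molecule I-A, was at 223 and 97.8 CPM in the Ctrl mice, 170.0 and 309 in the Pre-T mice, and 14.5 and 40.3 in the Post-T mice. Both Post-T mice lay below all 4 others (-3.15 ± 0.50 (SE), adjusted p = 2.75e-07 for Post-T minus Pre-T, 0.0418 with DESeq2). Cd74, the class II invariant chain, was at 506 and 411 CPM in the Ctrl mice, 383 and 656 in the Pre-T mice, and 72.3 and 137 in the Post-T mice. It fell likewise (-2.27 ± 0.40 (SE), adjusted p = 6.09e-06, 0.0276 with DESeq2). H2-Aa (-1.86 ± 0.43) and H2-Eb1 (-1.86 ± 0.44) passed with edgeR only, and these 4 of 15 listed genes passed, at a list median of -1.02 against -0.25 over all genes. Lyz2 stood at 648 and 587 CPM in the Ctrl mice, 1072 and 922 in the Pre-T mice, and 269.9 and 185 in the Post-T mice. It was lower in both Post-T mice than in any other (-2.02 ± 0.37 (SE), adjusted p = 2.57e-05, 0.000106 with DESeq2). The signalling adaptor Tyrobp (-1.85 ± 0.41), the Fc receptor chain Fcer1g (-1.32 ± 0.38) and the antiviral membrane protein Ifitm3 (-2.42 ± 0.47) were also lower.

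Lyz2, Cd74 and H2-Ab1 were also found outside the monocyte nuclei, at a higher level in both Pre-T mice than in the other mice. In nuclei without Ptprc, Lyz2 stood at 5.85 and 5.73 CPM in the Ctrl mice, 45.3 and 202 in the Pre-T mice, and 12 and 3.76 in the Post-T mice. Cd74 was at 12.7 and 19.2 CPM in the Ctrl mice, 54.1 and 239.5 in the Pre-T mice, and 15.8 and 8.55 in the Post-T mice. H2-Ab1 was at 4.97 and 5.96 CPM in the Ctrl mice, 23.3 and 86.8 in the Pre-T mice, and 5.80 and 3.53 in the Post-T mice, and Pre-T 2 was highest for all 3. The levels there are below those of monocyte nuclei in every mouse. In Treml4/Ace-type nuclei alone Lyz2 was at 374 and 337 CPM in the Ctrl mice, 756 and 751 in the Pre-T mice, and 164 and 151 in the Post-T mice. In the Ccr2-type it was at 696 and 642 CPM in the Ctrl mice, 1773 and 1140.4 in the Pre-T mice, and 455 and 193 in the Post-T mice, so Post-T lay below Pre-T in both types. The calls of H2-Ab1, Cd74 and Lyz2 were lost in nuclei with at least 3 markers and without members that carried markers of another class. That of Cd74 was also lost without Pre-T 2. How far RNA outside the nuclei contributes was not tested.

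Cd226, Sgcd and, mostly through Ctrl 1, Runx3 were higher in the Ctrl mice than with the Western diet on few UMIs. Most of the Ctrl UMIs lay in Ccr2-type nuclei. Cd226, an activating receptor known on T and NK cells, had 13 and 4 UMIs in the Ctrl mice, 2 and 4 in the Pre-T mice, and 0 and 0 in the Post-T mice. Western diet minus Ctrl was -6.21 ± 0.99 (SE), adjusted p = 3.02e-07 (0.0016 with DESeq2), and 12 and 4 of the Ctrl UMIs lay in Ccr2-type nuclei. Sgcd, a sarcoglycan of the dystrophin complex, had 13 and 6 UMIs in the Ctrl mice, 1 and 0 in the Pre-T mice, and 0 and 0 in the Post-T mice. This is a ratio of 0.00407 (95% counting interval 9.79e-05 to 0.0256) (-7.44 ± 1.02 (SE), adjusted p = 1.06e-09, 4.85e-05 with DESeq2), and of the Ctrl UMIs 12 and 6 lay in the Ccr2-type. Runx3, a transcription factor of lymphocytes and some dendritic cells, had 13 and 2 UMIs in the Ctrl mice, 13 and 14 in the Pre-T mice, and 0 and 1 in the Post-T mice (-3.57 ± 0.76 (SE), adjusted p = 0.000708), with 12 and 2 of the Ctrl UMIs in the Ccr2-type. Beside them the 5 T cell markers summed to 20.2 and 97.8 CPM in the Ctrl mice and 8.05 to 62.7 in the others, and the dendritic markers to 121 and 19.6 CPM against 0 to 70.5; their part was not tested. The calls of Cd226 and Runx3 were lost without Ctrl 1, as was that of Sgcd for Post-T minus Ctrl, though not for Western diet minus Ctrl. For Runx3, 2 UMIs among 51131 in Ctrl 2 were nearly the same level as 14 among 368916 in Pre-T 2. The calls of Cd226, Sgcd and Runx3 were all lost in nuclei with at least 3 markers and without members that carried markers of another class.

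Of the genes with the 8 largest differences of a direction, Pecam1, Sgcd, Cd226 and Negr1 were the ones with at least 2 times the mean CPM of nuclei without Ptprc, and several of the others are known hepatocyte transcripts. Apoa4, an apolipoprotein, had 0 and 0 UMIs in the Ctrl mice, 73 and 76 in the Pre-T mice, and 25 and 111 in the Post-T mice, at least 7.34-fold higher with the Western diet on a floor of 3 UMIs over the group. In nuclei without Ptprc it stood at 5.29 and 4.71 CPM in the Ctrl mice, 133 and 275 in the Pre-T mice, and 155 and 1037 in the Post-T mice. Hamp, which encodes hepcidin, had 13 and 22 UMIs in the Ctrl mice, 75 and 169 in the Pre-T mice, and 0 and 0 in the Post-T mice, at least 27.8-fold lower in Post-T than in Pre-T. In nuclei without Ptprc it was at 845 and 1688 CPM in the Ctrl mice, 287 and 578 in the Pre-T mice, and 2.59 and 0.693 in the Post-T mice. For Apoa4 and Hamp the level in monocyte nuclei was below that of the surrounding nuclei in every mouse. Serpina1e, Cyp2a5, Cyp1a2, Slc1a2, Gldc, C8a, Hal, Slco1a1, Cyp2c38 and Thrsp, also among the 8 largest differences of a direction in at least 1 comparison, are known hepatocyte genes. Adgrv1, Bcl3, Rad51b, Rpl30, Grip1, Meg3, Slco1a4, Gm36264, Auts2, Dlgap1, Itga8, Lhfp, Amdhd1, Kcnb2, Gm36041 and 9530026P05Rik, the others of that size, had a mean under 2 times that of nuclei without Ptprc. Negr1, a neuronal adhesion molecule, was above it, with 0 and 0 UMIs in the Ctrl mice, 66 and 3 in the Pre-T mice, and 44 and 0 in the Post-T mice, of which nearly all lay in Pre-T 1 and Post-T 1. Pre-T was at least 2.39-fold higher than Ctrl on a floor of 3 UMIs over the group (adjusted p = 0.0337, not passed with DESeq2). Arg1, which was listed as a gene of suppressive monocytes, stood at 465 and 215 CPM in the Ctrl mice, 117 and 195 in the Pre-T mice, and 19.3 and 0 in the Post-T mice in monocyte nuclei. It was at 1130.0 and 1580.4 CPM in the Ctrl mice, 289 and 487 in the Pre-T mice, and 90.7 and 9.71 in the Post-T mice in nuclei without Ptprc. How much of these differences is RNA from hepatocytes was not tested.

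A second set of genes had levels of the same order in monocyte nuclei and in nuclei without Ptprc. Cmss1 was at 2489 and 1545 CPM in the Ctrl mice, 863 and 1643 in the Pre-T mice, and 6645 and 11410.0 in the Post-T mice in monocyte nuclei. Nuclei without Ptprc had 2286 and 866 CPM in the Ctrl mice, 482 and 1438 in the Pre-T mice, and 6371 and 10898 in the Post-T mice, so both Post-T mice were high in each. Cdk8, the Mediator kinase, stood at 587 and 567 CPM in the Ctrl mice, 313 and 442 in the Pre-T mice, and 2130.0 and 3076 in the Post-T mice. Nuclei without Ptprc had 532 and 387 CPM in the Ctrl mice, 291 and 392 in the Pre-T mice, and 1884 and 2804 in the Post-T mice. Again both Post-T mice were the highest in each. Fkbp5, a target of the glucocorticoid receptor, stood at 40.5 and 19.6 CPM in the Ctrl mice, 33.3 and 92.2 in the Pre-T mice, and 602 and 427 in the Post-T mice. Nuclei without Ptprc had 32.9 and 83.4 CPM in the Ctrl mice, 82.6 and 91.4 in the Pre-T mice, and 367 and 666 in the Post-T mice. All 3 passed for Post-T minus Pre-T (2.94 ± 0.42, 2.88 ± 0.38 and 3.19 ± 0.39), by DESeq2 too.

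**Figure D5:**
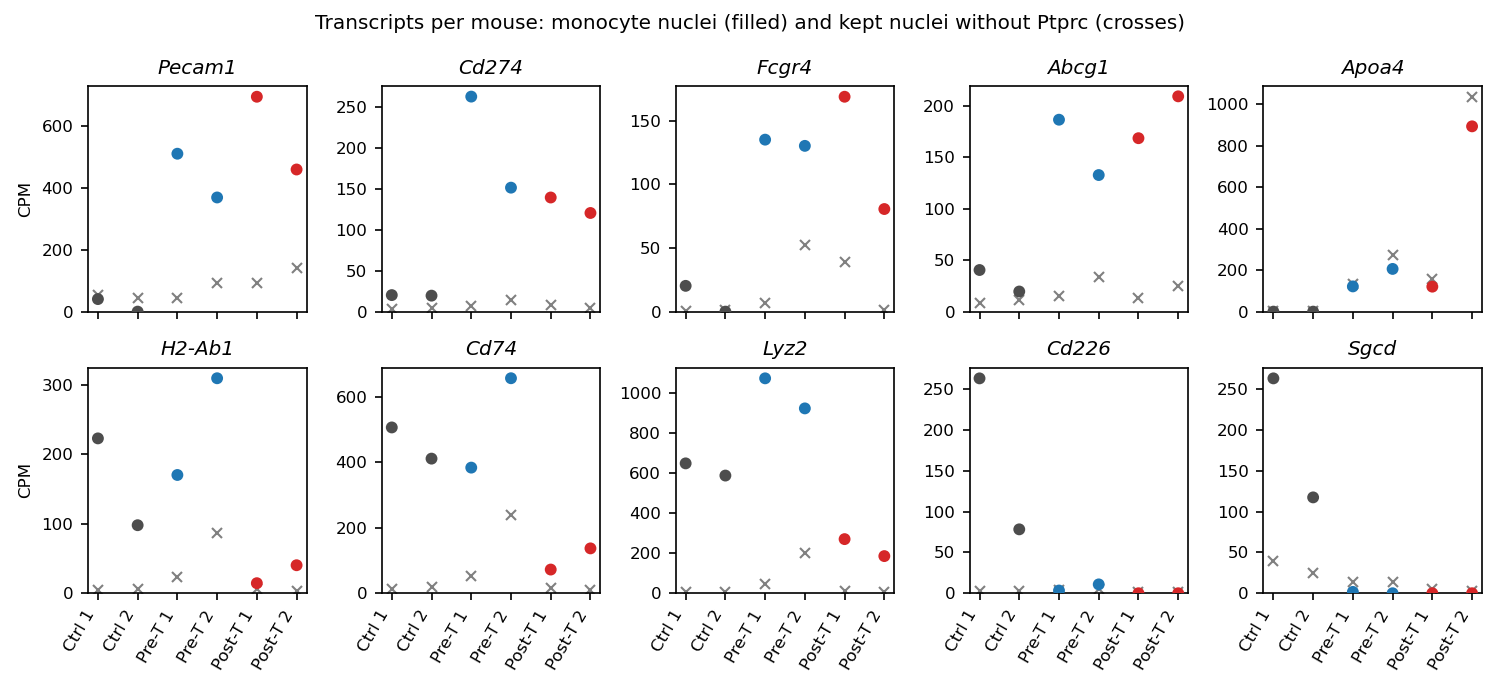
CPM of 10 genes per mouse in monocyte nuclei (filled points) and in kept nuclei without a Ptprc UMI (crosses). Pecam1 lies above the crosses in all 4 Western-diet mice and below them in both Ctrl mice, while Apoa4 in monocyte nuclei lies below the crosses in every mouse.

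Other listed monocyte programs had 0 to 3 genes per list past the test between diets, where 1.13%, 1.4%, 1.57% and 1.34% of all genes passed. Of the 18 nonclassical genes none passed in any of the 4 comparisons (medians 0.89, 0.74, -0.39 and 0.74 in the order Pre-T, Post-T, Post-T minus Pre-T and Western diet), and of the 17 classical genes 1, 2, 2 and 2 did, where the 2 of Post-T minus Pre-T were lower. Of 17 inflammatory cytokines and chemokines and of 26 network signals none passed, and none of 23 interferon-stimulated genes, whose medians were -0.08, -0.54, -0.78 and -0.31. Of 22 lipid genes 3, 2, 0 and 3 passed, all higher. The lipid and the classical genes passed at a higher share than all genes wherever any did, but on 1 to 3 genes per list. DESeq2 called none of the lipid or classical genes in any of the 4 comparisons. Of 27 transcription factors Cebpb was higher in Pre-T and Runx3 lower in Post-T and with the Western diet. At an unadjusted p under 0.05 the nonclassical list had 9, 8, 6 and 9, the cytokines 3, 1, 5 and 2, the network signals 4, 3, 1 and 4 and the interferon list 2, 3, 1 and 3 genes, and DESeq2 called none of any of these 4 lists.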

How the data were processed

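UMI counts per gene and barcode were deposited by the authors as 1 matrix per mouse, made from snap-frozen liver nuclei with the 10x Next GEM v3.1 kit and Cell Ranger 6.1.1 on mm10, per the labels and the study's methods. Counts were used as deposited. Kept nuclei had over 200 and under 5000 genes and under 5% mitochondrial UMIs. No doublet caller was run and free RNA was not removed.

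UMIs were summed per mouse over the nuclei of a class, so the mouse was the replicate (2 per group), and tested with edgeR 4.0.16 (quasi-likelihood, TMM scaling, genes with at least 3 UMIs over the sums, Benjamini-Hochberg adjustment at 0.05 over all genes tested) in R 4.3.3. Diet groups entered 1 fit of all 6 mice with 3 residual degrees of freedom. Classes of the same mouse were compared with the mouse as a block, in mice with at least 10 nuclei of each class, leaving out the genes that define the classes. Shares were compared by exact two-sided permutation over mice. A fold is a log2 difference. Its SE is the absolute log2 difference divided by the square root of the F statistic of its edgeR test. It is derived from the test and is not a spread measured between mice. Counting intervals and limits from 3 counts cover counting error only. The steps were tested on simulated data.

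Alternatives were DESeq2 1.42.0, RLE scaling, other minimum counts, nuclei thinned to 500 UMIs, at least 3 markers, members without markers of other classes, the replicate number as a block and leaving out each mouse. Genes named are the genes of the 13 lists (231 genes) with an adjusted p under 0.05, and of the genes with a mean of at least 50 CPM and an adjusted p under 0.05 the 8 (between diets, groups not overlapping) or 10 (within mice, same direction in every mouse) with the largest fold in each direction. The members and lists were chosen with earlier results of these data known. Replicate numbers did not pair the mice: the differences between replicates 1 and 2 correlated at -0.168 (Ctrl and Pre-T), -0.0268 (Ctrl and Post-T) and 0.128 (Pre-T and Post-T) over 4225 genes. Promoters came from RefSeq on GRCm38.p6. Some genes are not reported here.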

Additional observations from a re-analysis of the deposited data

How the results depend on the processing

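Counts of genes that passed depended on the settings, between diets and within mice. In the order Pre-T minus Ctrl, Post-T minus Ctrl, Post-T minus Pre-T and Western diet minus Ctrl, DESeq2 called 3, 50, 27 and 35 genes, a minimum of 10 UMIs left 19, 91, 88 and 63, thinned nuclei 5, 19, 15 and 5, nuclei with at least 3 markers 0, 0, 0 and 0, members without markers of other classes 0, 0, 1 and 0, and genes enriched in monocyte nuclei, an alternative chosen after seeing the data, 38, 47, 29 and 46. Leaving out 1 mouse gave 36 to 200, 80 to 205, 77 to 303 and 53 to 186. With the replicate number as a block, which the labels do not say pairs the mice, the counts were 104, 147, 165 and 138. Thinned nuclei gave 378 genes against Kupffer nuclei, 376 against Trem2/Gpnmb nuclei and 67 between the types, and DESeq2 gave 945, 603 and 166. Without 1 mouse these counts were 818 to 1393, 710 to 1441 and 164 to 575, each lowest without Pre-T 1, and the Ptprc share of Post-T minus Pre-T was -5.01 to 1.02 points. Some differences turned: the Ptprc share of Post-T minus Ctrl was -0.237 points in thinned nuclei, Itga8 in Pre-T minus Ctrl was 3.19 without members with markers of other classes, Mertk there was -0.17 with at least 3 markers, and between the types in thinned nuclei Cd300a was -0.0845, Mertk 0.028 and Msr1 0.35. Depth limits the Ctrl values, where 3 UMIs stand at 60.7 and 58.7 CPM. Of 105 named or listed calls between diets DESeq2 kept 39 and weakened 65, and of 322 within mice it kept 215 and weakened 79. Others, such as Top2a and Mki67 between the types, had no adjusted p by DESeq2.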
